A study of Mus musculus with 9 samples.

Results

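The motile cilia genes are a list of 35 symbols covering the regulators, the axoneme and the accessory proteins of beating cilia, which in the male tract line the efferent ducts between testis and epididymis. A gene belonged to the set if its symbol stood in the deposited expression table, which held 33 of the 35 among 24346 genes. The other symbols, Dnai1 and Dnai2, are newer names of Dnaic1 and Dnaic2, which are in the table. The samples were IS-caput epididymis, the initial segment (IS) dissected together with the caput, from mice labelled as 14 weeks old. RNA-seq libraries came from 3 Nicol-/-, 3 Ros1-/- and 3 Nicol+/- samples, and the design text speaks of 4 per genotype while 3 are listed. Nicol, annotated as Gm1673 and spelled Nicole in the labels, encodes a small secreted protein that reaches the epididymis from the testis. It was deleted by CRISPR/Cas9 on a B6D2F1 background. Ros1 encodes the receptor tyrosine kinase of the epididymal epithelium through which this lumicrine signal acts, and the Ros1-/- line had been made earlier. The Nicol+/- controls carry 1 Nicol-null allele themselves, no wild-type or Ros1+/- library was compared, and both knockouts were set against the same 3 Nicol+/- libraries. The labels do not say whether each library came from a separate mouse, so the tests measure the spread between these libraries.

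A motile cilium is built on an axoneme of doublet microtubules around a central pair. Outer and inner dynein arms slide the doublets, the nexin-dynein regulatory complex and the radial spokes set when the arms act, and microtubule inner proteins such as the tektins stiffen the doublets. In multiciliated cells, geminin-family coregulators switch on the programme that multiplies centrioles, and FOXJ1 and the RFX factors then switch on the axonemal genes. Multiciliated cells of the efferent duct stir the luminal fluid that carries sperm towards the epididymis. Developing sperm build their flagellum from many of the same genes.

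The targeted genes were read first. Gm1673 was listed at 0 in all 3 Nicol-/- libraries and stood at 19.6, 16.8 and 16.6 RPKM in Ros1-/- and 8.69, 9.09 and 6.05 RPKM in Nicol+/-. RPKM is a read number scaled by exon length and sequencing depth. Ros1 stood at 16.8 to 24.7 RPKM in Nicol-/-, 8.06 to 9.32 RPKM in Ros1-/- and 40.8 to 48.0 RPKM in Nicol+/-. The estimated depth was 8189597 to 16595581 reads per library, and the largest and smallest estimates both belonged to Nicol+/-. All 11 markers of initial segment epithelium were lower in each knockout than in Nicol+/-. Ros1 itself, the gene targeted in Ros1-/-, is among these 11. Tests used log2(RPKM + 1) in 1 limma fit of all 9 libraries, for 13647 genes that reached 1 RPKM in 3 libraries or more. A gene was called at a Benjamini-Hochberg adjusted p under 0.05, adjusted over all 13647 genes. Fold changes are on that log2 scale, where the added 1 shrinks the change of weakly expressed genes.

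Motile cilia genes stood higher in Nicol-/- IS-caput than in Nicol+/-, with at least 1 gene called higher in each role class of the list. In Ros1-/-, Ccno alone was called against Nicol+/- and no gene against Nicol-/-. Of the 33 genes, 26 passed the filter and 7 did not (Rfx3, Gmnc, Dnah5, Dnah9, Dnaic2, Spef2 and Hydin). In Nicol-/- against Nicol+/-, 13 of the 26 were called higher and 0 lower, where 8.95% of all genes tested were called higher and 11.9% lower. At an unadjusted p under 0.05, 22 were higher and 0 lower, where 17% of all genes tested were higher and 18.7% lower. The median log2 fold change of the 26 was 0.90, and that of all genes tested was 0. Of the 26, 15 had at least 1 RPKM in all 3 Nicol+/- libraries, and 9 of those 15 were called higher. The others passed the filter through the knockout libraries as well, which favours a rise, so the count over the 26 is a description. The called genes among these others were Drc1, Ccdc113, Rsph4a and Sntn. Across all 33 genes, 28 had every Nicol-/- library above every Nicol+/- library, and 23 of the 26 tested did so, against 17.5% of all genes tested. In bulk tissue, more ciliated cells and more RNA per ciliated cell cannot be told apart.

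Nicol-/- replicate 3 stood apart from the other Nicol-/- libraries in these genes. It was the highest of the 9 libraries for 31 of the 33 genes, the exceptions being Mcidas, highest in Nicol-/- replicate 2, and Ccno, highest in Ros1-/- replicate 3. Among the 26 tested, its RPKM was a median of 2.18 times the mean of Nicol-/- replicates 1 and 2 (range 0.881 to 3.91), and over all genes tested this median was 1.01. Nicol-/- replicates 1 and 2 were both above every Nicol+/- library for 28 of the 33 genes. The shares of all genes for the counts of 31 and 28 are not given here, so both counts are descriptions. For the 26 tested, the mean of Nicol-/- replicates 1 and 2 was a median of 1.76 times that of Nicol+/- (range 0.993 to 2.72). Without replicate 3, the median log2 fold change came to 0.53, 9 of the 26 genes were called higher and 0 lower, and 20 were higher at an unadjusted p under 0.05. In that fit 7.28% of all genes tested were called higher and 11.2% lower. The share of all genes at an unadjusted p under 0.05 is not given for that fit. Drc1, Pifo and Ccdc39 stayed called whichever single library was left out, and each of the other 10 calls was lost for at least 1 library. Leaving out Nicol+/- replicate 1 ended 10 of the 13 calls, Nicol+/- replicate 3 or Ros1-/- replicate 1 ended 9, Nicol+/- replicate 2 or Ros1-/- replicate 2 ended 7, Ros1-/- replicate 3 ended 6, Nicol-/- replicate 3 ended 5, Nicol-/- replicate 1 ended 3 and Nicol-/- replicate 2 ended 2.

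**Figure D1:**
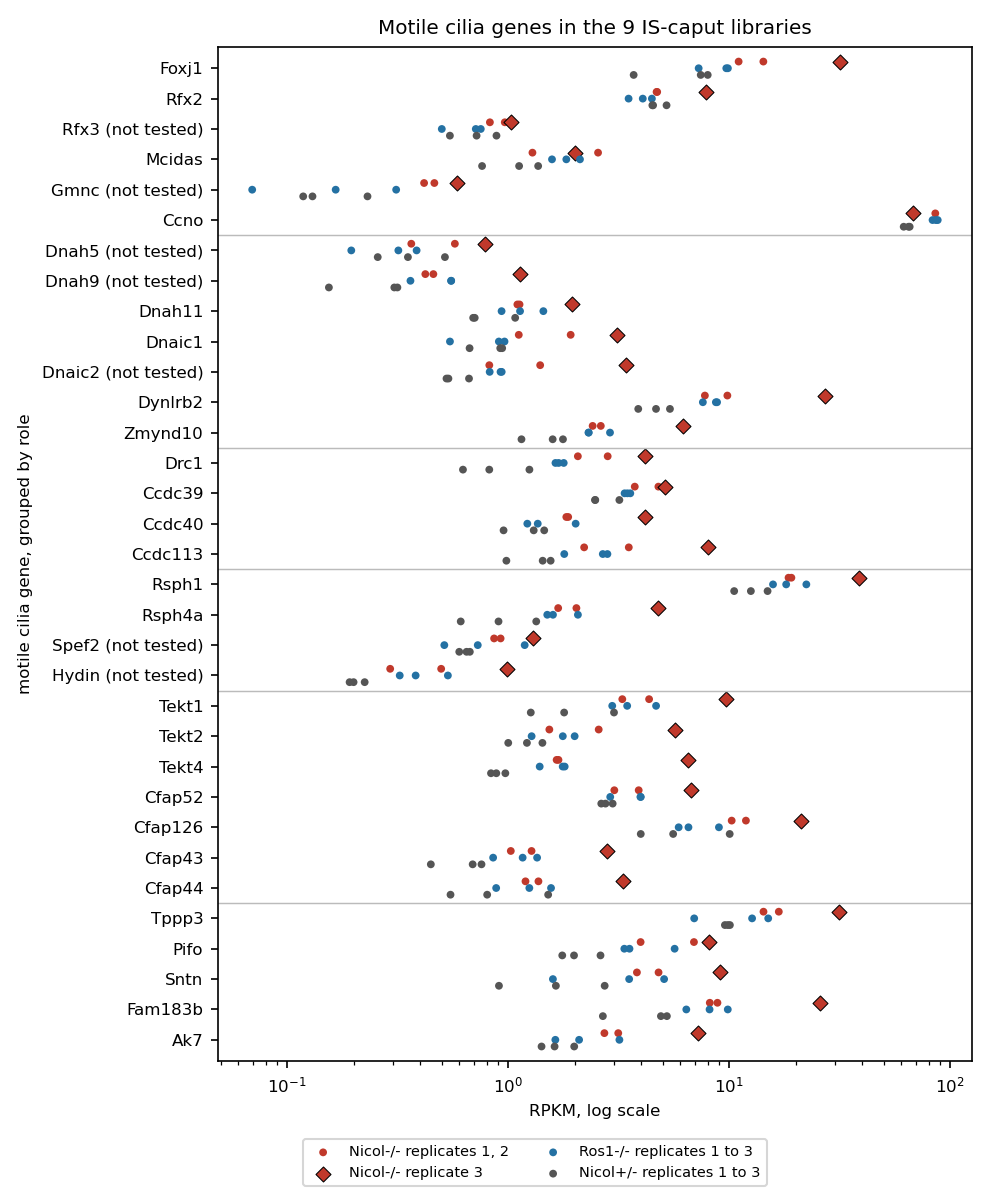
RPKM of the 33 motile cilia genes (rows, grouped by role) on a log scale, with 1 point per library: Nicol-/- red (replicate 3 as a diamond), Ros1-/- blue, Nicol+/- grey. The Nicol-/- replicate 3 diamond is the rightmost point for 31 of the 33 genes, and Nicol-/- replicates 1 and 2 both lie right of all grey points for 28 of them.

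RFX factors bind a short sequence, the X-box, in the promoters of cilia genes, so the promoters of these genes are shown beside their levels. RefSeq promoters of build GRCm38.p6, from 250 bases before a gene's start to 50 after, were at hand for 29 of the 33 genes. The letters GTTGCC, searched on both strands, occurred in promoters of 18 of the 29 (62.1%), of 42.9% of 70 other motile cilium genes, of 44.1% of 34 genes of intraflagellar transport and the primary cilium, and of 14.95% of 10828 tested genes. The longer GTTGCCA, every match of which is also a match of GTTGCC, occurred for 31.0%, 21.4%, 20.6% and 4.7% of the same lists. The forkhead core GTAAACA occurred for 10.3% (Ak7, Cfap43 and Sntn), 7.1%, 0.0% and 3.1%. In 23 promoters of the germ cell and sperm list, GTTGCC occurred for 8.7%, GTTGCCA for 0.0% and GTAAACA for 8.7%, where the last lies close to the 10.3% of the motile cilia genes. These shares were not tested, and the promoters of the set had 55.6% G and C against 60.3% for all genes tested. Such a match is not a measured binding site. The 7 windows below each hold GTTGCC, or its reverse complement GGCAAC, in capitals with 20 bases on either side, 5′ to 3′ along the gene's own strand. The Tekt1 window also ends in a further GTTGCC, left in lower case. The first 4 windows are of genes called higher in Nicol-/-, and the last 3 are of regulators that were not.
Dynlrb2, chr8:116504944-116504989, plus strand: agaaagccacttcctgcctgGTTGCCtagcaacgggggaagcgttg
Fam183b, chr11:58802002-58802047, minus strand: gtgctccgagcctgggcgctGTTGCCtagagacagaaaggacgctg
Sntn, chr14:13670790-13670835, plus strand: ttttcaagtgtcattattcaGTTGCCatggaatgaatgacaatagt
Tekt1, chr11:72361892-72361937, minus strand: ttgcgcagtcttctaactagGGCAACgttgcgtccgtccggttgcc
Mcidas, chr13:112993653-112993698, plus strand: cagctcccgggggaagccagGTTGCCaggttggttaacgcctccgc
Ccno, chr13:112987563-112987608, plus strand: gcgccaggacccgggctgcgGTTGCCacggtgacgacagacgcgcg
Rfx2, chr17:56831099-56831144, minus strand: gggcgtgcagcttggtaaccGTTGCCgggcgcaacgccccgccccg

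**Figure D2:**
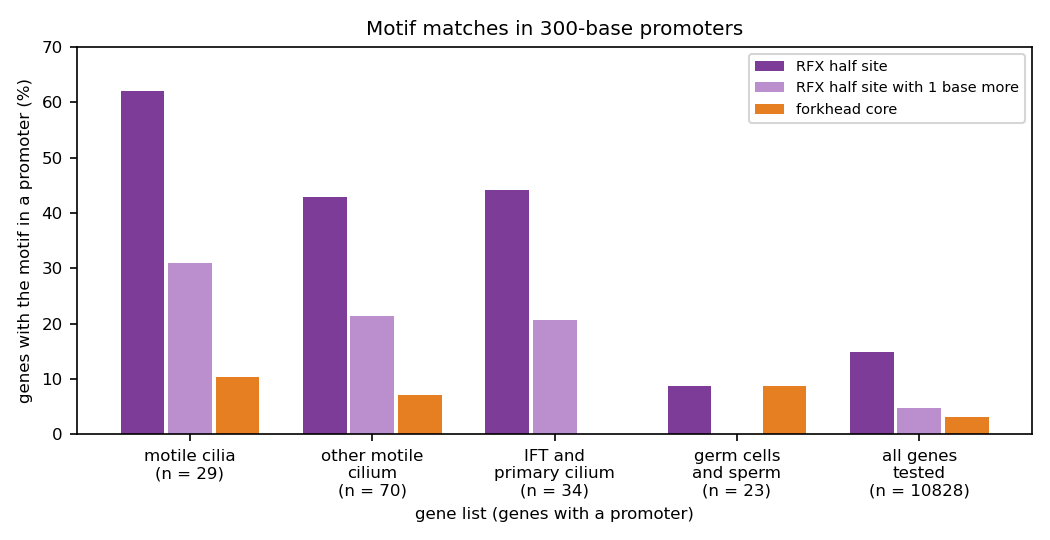
Percent of genes with a promoter that holds GTTGCC, a core part of the RFX motif (dark purple), GTTGCCA, the same with 1 base more (light purple), or GTAAACA, the forkhead core (orange), for 5 gene lists with the number of genes that have a promoter. GTTGCC is found for 62.1% of the motile cilia genes, against 14.95% of all genes tested.

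The regulators of multiciliated cells did not move as 1 block. Foxj1, the forkhead factor that drives motile ciliogenesis (gene at chr11:116330704-116335499), had 11.03, 14.3 and 31.7 RPKM in Nicol-/-, 9.86, 7.27 and 9.70 RPKM in Ros1-/- and 3.70, 7.99 and 7.43 RPKM in Nicol+/-. All 3 Nicol-/- libraries were above all 6 others, while Ros1-/- and Nicol+/- overlapped. Over 3 libraries each, Foxj1 averaged 19.01 RPKM (SD 11.1) in Nicol-/- and 6.37 RPKM (SD 2.34) in Nicol+/-. Its log2 fold change was 1.36 ± 0.36 (SE), and limma gave an adjusted p of 0.0297. Without Nicol-/- replicate 3 the log2 fold change was 0.94 (adjusted p = 0.0487), and the call was lost without Nicol+/- replicate 1 or Nicol+/- replicate 3. In Ros1-/- against Nicol+/-, Foxj1 had a value of 0.48 ± 0.36 on the log2 scale (adjusted p = 0.376).

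Rfx2, a factor that binds the X-box, of which GTTGCC is a core part, had 4.69, 4.72 and 7.89 RPKM in Nicol-/-, 4.47, 4.06 and 3.51 RPKM in Ros1-/- and 4.53, 4.49 and 5.21 RPKM in Nicol+/-. Nicol-/- replicate 3 alone stood apart, and the other 8 libraries lay close together. Its log2 fold change in Nicol-/- was 0.21 (adjusted p = 0.421 from limma), and it was -0.01 without Nicol-/- replicate 3. Rfx3, its relative, was between 0.501 and 1.03 RPKM and was not tested.

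Mcidas and Gmnc encode geminin-family coregulators that start the multiciliated programme. Mcidas had 1.29, 2.55 and 2.01 RPKM in Nicol-/-, 2.11, 1.83 and 1.58 RPKM in Ros1-/- and 0.762, 1.37 and 1.12 RPKM in Nicol+/-. Every Ros1-/- library was above every Nicol+/- library, while Nicol-/- replicate 1 fell below Nicol+/- replicate 2. Its log2 fold changes of 0.49 in Nicol-/- (adjusted p = 0.0881 from limma) and 0.45 in Ros1-/- (adjusted p = 0.105) did not pass. Gmnc was at or under 0.586 RPKM in every library, with 0.417 to 0.586 RPKM in Nicol-/-, 0.0695 to 0.312 RPKM in Ros1-/- and 0.118 to 0.231 RPKM in Nicol+/-.

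Ccno, a cyclin-like gene needed for centriole amplification in multiciliated cells, was the most abundant of the set and followed another pattern. It had 85.6, 68.9 and 68.0 RPKM in Nicol-/-, 86.2, 83.1 and 87.7 RPKM in Ros1-/- and 61.6, 65.5 and 64.7 RPKM in Nicol+/-. Ros1-/- was evenly high and Nicol-/- replicate 3 was the lowest of its group. Ccno was the only gene of the set called in Ros1-/- against Nicol+/- (log2 fold change 0.42 ± 0.093 SE, adjusted p = 0.0128 from limma), and it was not called in Nicol-/- (0.20, adjusted p = 0.151). The Ros1-/- call was lost without Ros1-/- replicate 1 (adjusted p = 0.0509). Ccno (chr13:112987802-112990778) and Mcidas (chr13:112993581-113000394) are neighbours, 2803 bases apart. Mcidas stood below 3 RPKM beside Ccno at 61.6 to 87.7 RPKM.

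Deup1, a further gene of centriole amplification that served as a marker of multiciliated cells, is in the table under its older symbol Ccdc67. It stood at 0.603, 1.09 and 1.73 RPKM in Nicol-/-, 0.552, 0.372 and 1.40 RPKM in Ros1-/- and 0.414, 0.369 and 0.577 RPKM in Nicol+/-. All markers of multiciliated cells that were set for the check, Foxj1, Mcidas, Gmnc, Ccno, Deup1, Dnah5, Dnah9, Sntn, Tekt1 and Ccdc153, had a value above 0 in every library, most of them at low levels. Which duct the transcripts came from was not tested, since the tissue sources do not say how much efferent duct the dissection held.

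Among the dynein genes tested, Dynlrb2 and Zmynd10 passed the threshold, and Dnah11 and Dnaic1 did not. Zmynd10 (adjusted p = 0.0481 from limma) and Dnaic1 (0.0620) lay close on either side of it, so this is no split by type of chain. Dynlrb2, a roadblock-type dynein light chain, had 7.76, 9.81 and 27.2 RPKM in Nicol-/-, 8.81, 8.70 and 7.60 RPKM in Ros1-/- and 3.88, 4.67 and 5.39 RPKM in Nicol+/-. Both knockouts were wholly above Nicol+/-, and only Nicol-/- replicate 3 left the range of the other knockout libraries by far. The log2 fold change was 1.31 ± 0.36 (SE) in Nicol-/- (adjusted p = 0.0326 from limma) and 0.79 without Nicol-/- replicate 3 (adjusted p = 0.00829), the lowest adjusted p of the set in that fit. The call was lost without Nicol+/- replicate 1, 2 or 3 in turn and without Ros1-/- replicate 1 or 2.

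Zmynd10, a cytoplasmic factor for assembling dynein arms, had 2.41, 2.63 and 6.21 RPKM in Nicol-/-, 2.31, 2.89 and 2.32 RPKM in Ros1-/- and 1.59, 1.15 and 1.77 RPKM in Nicol+/-. Every knockout library was above every Nicol+/- library. Its log2 fold change in Nicol-/- was 0.84 (adjusted p = 0.0481 from limma, and 0.0503 with the replicate number as a block), so the call lies at the threshold.

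Dnaic1, an intermediate chain of the outer arm, had 1.12, 1.92 and 3.10 RPKM in Nicol-/-, 0.908, 0.546 and 0.963 RPKM in Ros1-/- and 0.921, 0.669 and 0.940 RPKM in Nicol+/-. Nicol-/- was above both other groups, which overlapped, but the adjusted p was 0.0620. Dnah11, an outer-arm heavy chain, had 1.10, 1.13 and 1.94 RPKM in Nicol-/-, 1.13, 0.934 and 1.44 RPKM in Ros1-/- and 0.706, 0.695 and 1.08 RPKM in Nicol+/-, with an adjusted p of 0.151. The outer-arm heavy chains Dnah5 and Dnah9 and the intermediate chain Dnaic2 were not tested. Dnah5 ranged from 0.195 to 0.786 RPKM and Dnah9 from 0.155 to 1.13 RPKM. Dnaic2 ranged from 0.822 to 3.43 RPKM in Nicol-/-, 0.825 to 0.935 RPKM in Ros1-/- and 0.526 to 0.665 RPKM in Nicol+/-. All 3 had their highest value in Nicol-/- replicate 3.

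The link between doublets held the call with the smallest adjusted p. Drc1, a subunit of the nexin-dynein regulatory complex (chr5:30281335-30366695), had 2.07, 2.82 and 4.17 RPKM in Nicol-/-, 1.64, 1.78 and 1.69 RPKM in Ros1-/- and 0.625, 1.25 and 0.822 RPKM in Nicol+/-. The 3 groups did not overlap, with Nicol-/- highest, Ros1-/- between and Nicol+/- lowest. Drc1 was under 1 RPKM in some Nicol+/- libraries and passed the filter with the help of the knockout libraries, which favours a rise. The log2 fold change was 1.06 ± 0.19 (SE) in Nicol-/- (adjusted p = 0.00616 from limma), the smallest adjusted p of the set, and 0.86 without Nicol-/- replicate 3 (adjusted p = 0.0115). Drc1 stayed called under every alternative in which it was tested. In Ros1-/- it was 0.52 (adjusted p = 0.083), and 0.0342 in the fit without Nicol-/- replicate 3.

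Ccdc39 and Ccdc40 form the molecular ruler that sets the axonemal repeat. Ccdc39 had 3.74, 4.78 and 5.10 RPKM in Nicol-/-, 3.57, 3.36 and 3.46 RPKM in Ros1-/- and 3.19, 2.47 and 2.48 RPKM in Nicol+/-, and the groups again did not overlap. Here Nicol-/- replicate 3 was only 1.20 times the mean of the other Nicol-/- libraries, and the log2 fold change was 0.58 with it (adjusted p = 0.0124 from limma) and 0.50 without it (adjusted p = 0.0329). With the replicate number as a block the adjusted p was 0.0762. Ccdc40 had 1.87, 1.83 and 4.17 RPKM in Nicol-/-, 2.02, 1.22 and 1.36 RPKM in Ros1-/- and 0.953, 1.31 and 1.46 RPKM in Nicol+/- (adjusted p = 0.0862 in Nicol-/-). The ruler partners thus differed in how far replicate 3 stood out, at 2.25 times for Ccdc40. Ccdc113, a coiled-coil protein of the cilium, had 2.21, 3.51 and 8.03 RPKM in Nicol-/-, 2.81, 1.79 and 2.68 RPKM in Ros1-/- and 1.43, 1.56 and 0.982 RPKM in Nicol+/-. Its log2 fold change in Nicol-/- was 1.14 (adjusted p = 0.0379 from limma, and 0.0761 with the block).

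Both radial spoke head genes were called higher in Nicol-/-. Rsph1 had 18.6, 19.1 and 38.8 RPKM in Nicol-/-, 22.3, 15.8 and 18.1 RPKM in Ros1-/- and 12.5, 14.9 and 10.5 RPKM in Nicol+/-. All 6 knockout libraries were above Nicol+/-, and Nicol-/- exceeded Nicol+/- by 0.89 (adjusted p = 0.0419 from limma, 0.0851 with the block and 0.0506 without Nicol-/- replicate 3). Rsph4a had 2.04, 1.68 and 4.78 RPKM in Nicol-/-, 2.07, 1.503 and 1.60 RPKM in Ros1-/- and 0.610, 0.905 and 1.34 RPKM in Nicol+/-. It too was above Nicol+/- in all 6 knockout libraries, with a log2 fold change of 0.90 in Nicol-/- (adjusted p = 0.0446 from limma, and 0.0646 without Nicol-/- replicate 3). The central pair genes Spef2 and Hydin did not pass the filter. Hydin ranged from 0.293 to 0.986 RPKM in Nicol-/-, 0.323 to 0.534 RPKM in Ros1-/- and 0.192 to 0.224 RPKM in Nicol+/-, so that the knockouts were wholly above Nicol+/-. Spef2 ranged from 0.864 to 1.29 RPKM, 0.514 to 1.19 RPKM and 0.601 to 0.671 RPKM in the same groups.

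The tektins lie inside the doublet wall. Tekt1 had 4.34, 3.28 and 9.65 RPKM in Nicol-/-, 3.46, 2.96 and 4.67 RPKM in Ros1-/- and 1.27, 3.01 and 1.79 RPKM in Nicol+/-, with a log2 fold change of 1.09 in Nicol-/- (adjusted p = 0.0465 from limma, 0.0804 with the block and 0.0875 without Nicol-/- replicate 3). Tekt2 had 2.57, 1.54 and 5.71 RPKM in Nicol-/-, 1.77, 1.28 and 1.999 RPKM in Ros1-/- and 1.001, 1.43 and 1.22 RPKM in Nicol+/- (adjusted p = 0.0802 in Nicol-/-). The tektins shared 1 shape, a moderate difference in replicates 1 and 2 of Nicol-/- and a far larger one in replicate 3. Tekt4 showed it most, with 1.69, 1.66 and 6.54 RPKM in Nicol-/-, 1.77, 1.39 and 1.80 RPKM in Ros1-/- and 0.884, 0.971 and 0.837 RPKM in Nicol+/-. Nicol-/- replicate 3 was 3.91 times the mean of the other Nicol-/- libraries, the widest ratio of the 26. Tekt4 did not pass in the fit of all 9 libraries (0.99, adjusted p = 0.071 from limma), and it passed without Nicol-/- replicate 3 (0.50, adjusted p = 0.0301).

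Cfap126, a microtubule inner protein, had 11.9, 10.3 and 21.2 RPKM in Nicol-/-, 8.98, 6.54 and 5.91 RPKM in Ros1-/- and 3.98, 5.58 and 10.1 RPKM in Nicol+/-. Nicol-/- was above Nicol+/-, but the lowest Nicol-/- library and the highest Nicol+/- library nearly met. The log2 fold change was 1.05 (adjusted p = 0.0475 from limma, and 0.117 without Nicol-/- replicate 3). Cfap52, another inner protein, had 3.90, 3.02 and 6.72 RPKM in Nicol-/-, 3.97, 3.98 and 2.90 RPKM in Ros1-/- and 2.76, 2.64 and 2.97 RPKM in Nicol+/- (adjusted p = 0.135 in Nicol-/-). Cfap43 and Cfap44 anchor the inner arms to the doublet. Cfap43 had 1.28, 1.03 and 2.81 RPKM in Nicol-/-, 1.35, 0.855 and 1.16 RPKM in Ros1-/- and 0.447, 0.691 and 0.758 RPKM in Nicol+/- (adjusted p = 0.0644). Cfap44 had 1.20, 1.37 and 3.32 RPKM in Nicol-/-, 1.25, 0.883 and 1.56 RPKM in Ros1-/- and 0.549, 0.804 and 1.52 RPKM in Nicol+/- (adjusted p = 0.182). Only Cfap44 of these overlapped between Nicol-/- and Nicol+/-.

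Of the remaining cilium proteins, 3 of 5 were called higher in Nicol-/-. Pifo, a protein of the ciliary base, had 3.97, 6.93 and 8.10 RPKM in Nicol-/-, 3.54, 3.35 and 5.66 RPKM in Ros1-/- and 1.99, 1.76 and 2.62 RPKM in Nicol+/-. All 6 knockout libraries were above Nicol+/-, and Nicol-/- replicate 2 stood near replicate 3. Its log2 fold change was 1.20 ± 0.24 (SE) in Nicol-/- (adjusted p = 0.00951 from limma) and 1.02 without Nicol-/- replicate 3 (adjusted p = 0.0265). Pifo stayed called in all 24 alternatives, with an adjusted p of 0.003 to 0.0339, where the values from the study's own test are unadjusted. In Ros1-/- the log2 fold change was 0.71 ± 0.24 (adjusted p = 0.0622, and 0.045 in the fit without Nicol-/- replicate 3).

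Sntn, which encodes sentan of the ciliary tip, had 3.82, 4.79 and 9.07 RPKM in Nicol-/-, 3.53, 1.59 and 5.08 RPKM in Ros1-/- and 0.909, 2.73 and 1.64 RPKM in Nicol+/-. Nicol-/- was above Nicol+/- throughout and Ros1-/- overlapped both, with a log2 fold change of 1.30 in Nicol-/- (adjusted p = 0.0392 from limma, and 0.101 without Nicol-/- replicate 3). Fam183b, a gene of ciliated cells, had 8.85, 8.17 and 25.7 RPKM in Nicol-/-, 9.85, 6.396 and 8.15 RPKM in Ros1-/- and 2.68, 4.91 and 5.22 RPKM in Nicol+/-. Its log2 fold change of 1.38 ± 0.39 (SE) in Nicol-/- was the highest of the set (adjusted p = 0.034 from limma, and 0.0373 without Nicol-/- replicate 3), and the Ros1-/- value of 0.81 (adjusted p = 0.16) was the highest there as well. The Nicol-/- call was lost without Nicol+/- replicate 1, 2 or 3 in turn, without Ros1-/- replicate 1 and without replicate 3 of both knockouts. Both groups of knockouts lay wholly above Nicol+/-.

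Tppp3, a tubulin polymerization-promoting protein, had 16.8, 14.3 and 31.5 RPKM in Nicol-/-, 12.7, 6.94 and 15.01 RPKM in Ros1-/- and 10.1, 9.56 and 9.85 RPKM in Nicol+/-. Nicol+/- was tight and Ros1-/- lay on either side of it. The adjusted p in Nicol-/- was 0.0582 from limma, and 0.0369 with the block, the 1 member that gained a call there. Ak7, an adenylate kinase of motile cilia, had 2.73, 3.15 and 7.24 RPKM in Nicol-/-, 3.19, 1.64 and 2.09 RPKM in Ros1-/- and 1.42, 1.99 and 1.62 RPKM in Nicol+/- (adjusted p = 0.052).

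**Figure D3:**
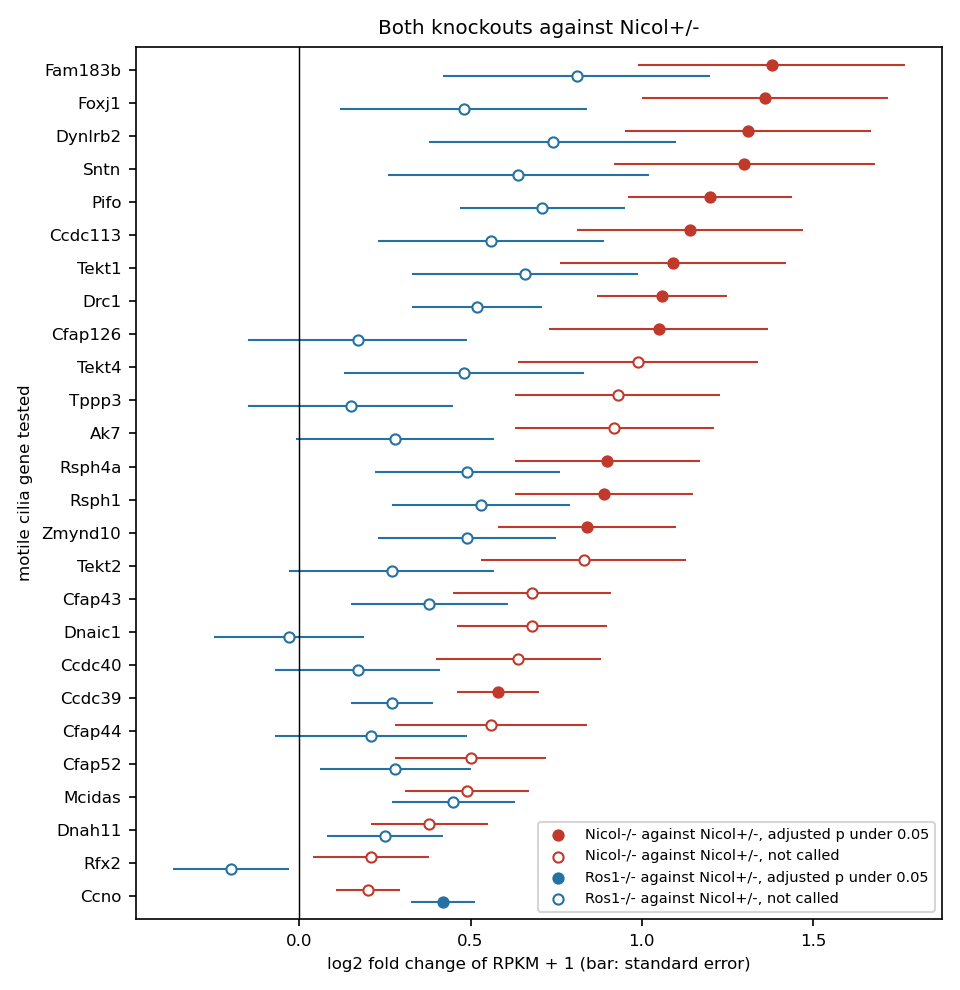
Log2 fold change of RPKM + 1 with its standard error for the 26 motile cilia genes tested, in Nicol-/- (red) and Ros1-/- (blue) against Nicol+/-, with filled points for an adjusted p under 0.05. All 26 red points are above 0 with 13 filled, and 24 blue points are above 0 with Ccno alone filled.

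In Ros1-/- against Nicol+/-, 1 of the 26 genes, Ccno, was called higher and 0 lower, where 9.52% of all genes tested were called higher and 13.3% lower. At an unadjusted p under 0.05, 4 of the 26 were higher and 0 lower, where 17.5% of all genes tested were higher and 19.1% lower, so these limma counts in Ros1-/- were no more than the background. The median log2 fold change was 0.44 and 24 of 26 were above 0, the exceptions being Rfx2 (-0.20) and Dnaic1 (-0.03). Among the 26, 13 had every Ros1-/- library above every Nicol+/- library, against 22.5% of all genes tested. The median ratio of the means was 1.45 (range 0.847 to 1.97). The count of calls depended on which libraries were in the fit, since 8 were called higher without Nicol-/- replicate 3 and 9 in a fit of the 6 libraries compared. The shares of all genes called in those fits are not given here, so these counts cannot be set against a background. The study's own kind of test, run per gene on RPKM with pooled variance and no adjustment, called 14 of the 33 genes higher in Ros1-/- and 5 in Nicol-/-. Of all genes it could be run on, that test called 13.1% higher and 14.6% lower in Ros1-/-, and 8.83% higher and 11.4% lower in Nicol-/-.

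The knockouts were also set against each other. In Ros1-/- against Nicol-/-, 0 were called higher and 0 lower by limma, where 0.403% of all genes tested were called higher and 1.15% lower. At an unadjusted p under 0.05, 1 was higher (Ccno) and 7 were lower, where 7.55% of all genes tested were higher and 9.53% lower. The study's own kind of test called 2 of the 33 lower, where it called 5.82% of all genes higher and 6.48% lower. The median log2 fold change was -0.48, and it was -0.12 without Nicol-/- replicate 3. For Foxj1 it was -0.88 ± 0.36 (SE), and -0.46 without that replicate. The wider fold changes in Nicol-/- than in Ros1-/- therefore do not pass as a difference between the knockouts.

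**Figure D4:**
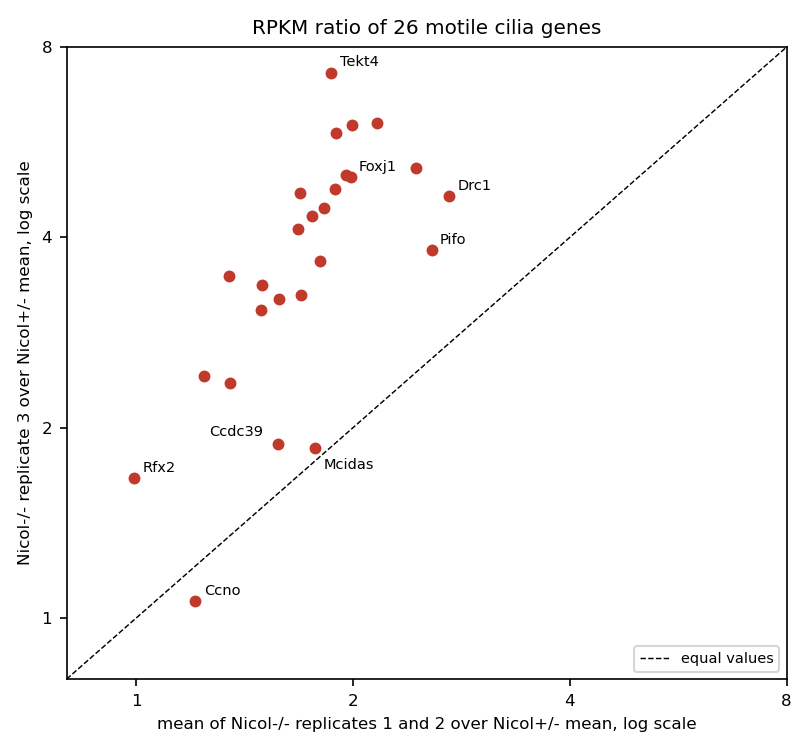
RPKM of Nicol-/- replicate 3 over the Nicol+/- mean (vertical, log scale) against the mean of Nicol-/- replicates 1 and 2 over the Nicol+/- mean (horizontal, log scale), with 1 point for each of the 26 motile cilia genes tested and a dashed line at equal values. All points but Ccno lie above the line, by up to 3.91 times for Tekt4.

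The members moved together across libraries. Over the 9 libraries, the Pearson correlation of a gene's log2 value with the mean of the other tested members ran from 0.813 for Ccdc39 to 0.982 for Fam183b in 23 of the 26 genes, with Rfx2 (0.655), Mcidas (0.623) and Ccno (0.17) below. These correlations share the same 9 libraries, and Nicol-/- replicate 3 is the far point of each. Outside the set, the 10 genes whose pattern was most like the mean of the members over the 9 libraries were Dnali1 (0.993), Fndc7 (0.985), Mapk15 (0.985), Trim47 (0.981), Ccdc108 (0.981), Ttc16 (0.98), Eef2k (0.978), Bbox1 (0.977), Large (0.977) and Ccdc153 (0.977). Over the 7 libraries left without Nicol-/- replicate 3 and Nicol+/- replicate 1, these correlations were 0.879 to 0.982. Dnali1, an inner-arm light chain gene, had 2.38, 2.92 and 6.94 RPKM in Nicol-/-, 2.80, 1.78 and 2.49 RPKM in Ros1-/- and 1.12, 1.47 and 1.77 RPKM in Nicol+/-. Dnali1 and Ccdc153 are on the list of other motile cilium genes, and the other 8 are on none of the lists.

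A wider list held 95 motile cilium genes outside the set, 57 of them tested. In Nicol-/- against Nicol+/-, 23 were called higher and 0 lower (median log2 fold change 0.69), beside the 8.95% and 11.9% of all genes tested. Some of the 57 passed the filter only with the help of knockout libraries, which favours a rise. Among the 43 that had at least 1 RPKM in all 3 Nicol+/- libraries, 16 were called higher and 0 lower. In Ros1-/- against Nicol+/-, 2 of the 57 were higher and 1 lower (median 0.30), beside 9.52% and 13.3% of all genes tested. In Ros1-/- against Nicol-/-, 0 were higher and 1 lower (median -0.36), with 1 higher and 14 lower at an unadjusted p under 0.05 by limma. Of all genes tested, 0.403% were called higher and 1.15% lower there, and 7.55% were higher and 9.53% lower at the unadjusted p. Nicol-/- medians of this list, relative to Nicol+/-, were 0.44, 0.47 and 1.27 by replicate. Spag16, a central pair protein, had 2.54, 2.63 and 4.26 RPKM in Nicol-/-, 1.67, 1.06 and 1.79 RPKM in Ros1-/- and 0.656, 0.804 and 0.732 RPKM in Nicol+/- (log2 fold change 1.24 in Nicol-/-, adjusted p = 0.00192 from limma). Ccdc114, of the outer-arm docking complex, was higher by 0.87 (adjusted p = 0.00558), and Nme5, a radial spoke protein, by 1.08 in Nicol-/- (adjusted p = 0.00618) and 0.80 in Ros1-/- (adjusted p = 0.0202). Cfap74 was called lower in Ros1-/-, with 2.89, 2.68 and 3.58 RPKM in Nicol-/-, 2.51, 2.31 and 1.45 RPKM in Ros1-/- and 6.53, 3.14 and 6.36 RPKM in Nicol+/- (adjusted p = 0.0166 in Ros1-/- by limma). The most abundant of the list in Nicol-/-, Spa17 and Mlf1, reached 30.6 and 25.5 RPKM in Nicol-/- replicate 3, and Mlf1 was called higher in Nicol-/- (adjusted p = 0.0419).

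Genes of intraflagellar transport and the primary cilium, which most cells use, had smaller fold changes. Of 39 tested, 2 (5.13%) were called higher and 0 lower in Nicol-/- (median log2 fold change 0.14), where 8.95% of all genes tested were higher and 11.9% lower. In Ros1-/-, 6 (15.4%) were higher and 1 lower (median 0.06), where 9.52% of all genes tested were higher and 13.3% lower. There were 0 in either direction between the knockouts by limma, where 0.403% of all genes tested were higher and 1.15% lower in Ros1-/-. At an unadjusted p under 0.05, 2 were higher and 8 lower in Ros1-/-, where 7.55% of all genes tested were higher and 9.53% lower. Ift20, a transport subunit and the most abundant of the list, had 88.4, 69.1 and 77.5 RPKM in Nicol-/-, 99.5, 94.0 and 88.9 RPKM in Ros1-/- and 81.1, 92.2 and 91.8 RPKM in Nicol+/-. Bbs9, a BBSome subunit, was higher in Nicol-/- by 0.47 (adjusted p = 0.0428 from limma) and in Ros1-/- by 0.63 (adjusted p = 0.0129), and Bbs7, another, in Nicol-/- by 0.50 (adjusted p = 0.0234). Kif3b, a motor subunit of the transport, was lower in Ros1-/- by 0.43 (log2 fold change -0.43, adjusted p = 0.0165). Nicol-/- replicate 3 was the highest of the 9 libraries for 13 of the 40 genes of this list in the table, and for 69 of the 82 of the wider motile list. The share of all genes for which it was the highest is not given here, so both counts are descriptions.

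**Figure D5:**
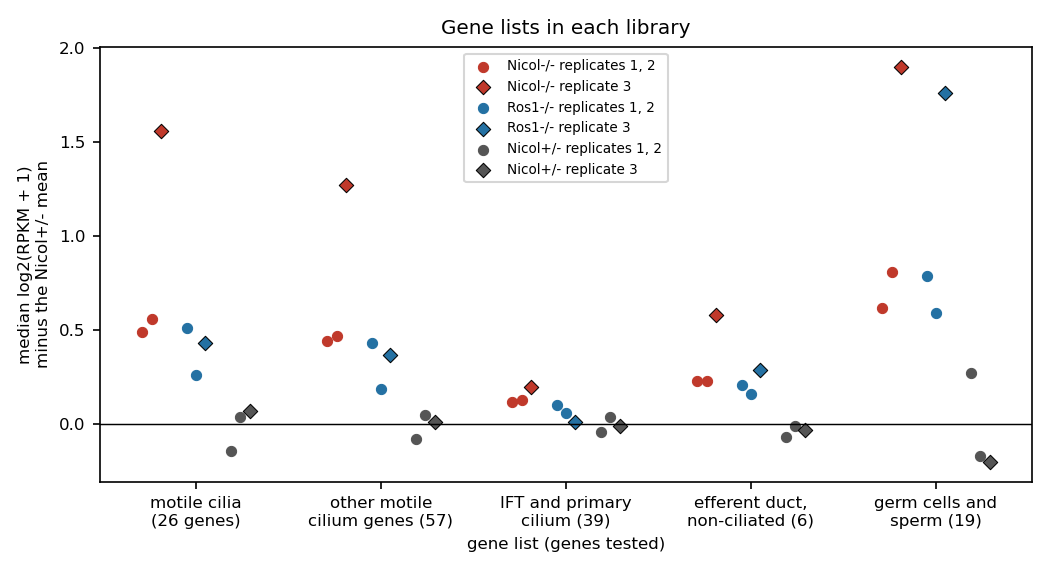
Median over each gene list of log2(RPKM + 1) minus the Nicol+/- mean, with 1 point per library: Nicol-/- red, Ros1-/- blue, Nicol+/- grey, replicate 3 as a diamond. Motile cilia genes reach 1.56 in Nicol-/- replicate 3 and 0.43 in Ros1-/- replicate 3, while germ cell transcripts reach 1.90 and 1.76 there.

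Transcripts of other cells moved in the same libraries. The germ cell and sperm list, 19 of 26 genes tested, had 8 called higher and 0 lower by limma in Nicol-/- and 9 higher and 0 lower in Ros1-/-. Among the 15 of these with at least 1 RPKM in all 3 Nicol+/- libraries, 7 and 8 were called higher in the same comparisons. Of all genes tested, 8.95% were called higher and 11.9% lower in Nicol-/-, and 9.52% and 13.3% in Ros1-/-. Between the knockouts 0 were called, with 2 lower in Ros1-/- at an unadjusted p under 0.05, where 9.53% of all genes tested were lower. Summed over the 26, germ cell RPKM was 349.7, 454.7 and 893.4 in Nicol-/-, 394.3, 419.4 and 942.1 in Ros1-/- and 235.7, 154.7 and 167.6 in Nicol+/-. The replicate 3 libraries of both knockouts were the highest in this sum. Summed RPKM of the motile cilia genes without Ccno was 127.5, 134.9 and 291.8 in Nicol-/-, 123.3, 92.7 and 116.0 in Ros1-/- and 65.8, 82.5 and 84.0 in Nicol+/-. By these sums, Ros1-/- replicate 3 was high in germ cell transcripts and level with its group in motile cilia genes. Prm2 made up much of the germ cell sum, with 312.1 RPKM in Nicol-/- replicate 3 and 430.1 RPKM in Ros1-/- replicate 3. Ldhc and Hils1 were called higher in Nicol-/- (adjusted p = 0.0191 and 0.0142 from limma) and not in Ros1-/-. Prm2, Pgk2 and Sycp3 were called higher in Ros1-/- and not in Nicol-/-. Ldhc had 31.6 RPKM in Nicol-/- replicate 3 and 8.59 RPKM in Ros1-/- replicate 3. Prm1, the protamine gene of spermatids, had 66.8, 77.7 and 117.4 RPKM in Nicol-/-, 55.7, 53.2 and 125.0 RPKM in Ros1-/- and 29.5, 23.3 and 20.96 RPKM in Nicol+/-. Of 8 sperm flagellum genes in the table, 2 passed the filter. Catsper2, a sperm calcium channel gene, lay between 2.76 and 3.84 RPKM in every library and was not called. Catsper3, of the same channel, had 1.62, 0.444 and 1.14 RPKM in Nicol-/-, 2.30, 2.06 and 2.51 RPKM in Ros1-/- and 0.710, 0.371 and 0.988 RPKM in Nicol+/-, and it was called higher in Ros1-/- (0.97, adjusted p = 0.0142 from limma). Of those not tested, Catsper1 and Catsper4 were at most 0.406 and 0.577 RPKM. Dnah8 reached 1.52 RPKM, Dnah17 0.680 RPKM, Tekt5 1.24 RPKM and Rsph6a 2.71 RPKM, each of them in Nicol-/- replicate 3. The earlier germ cell genes Ddx4 and Dazl were at most 2.23 and 0.116 RPKM, again in Nicol-/- replicate 3. The part of germ cell transcripts in the motile cilia result was not tested.

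Other cell types were read from marker lists as well. The shares of all genes called are those given for the germ cell list, with 0.403% higher and 1.15% lower in Ros1-/- against Nicol-/-. Macrophage markers summed to 52.5, 46.4 and 122.5 RPKM in Nicol-/-, 58.9, 55.6 and 61.0 RPKM in Ros1-/- and 67.0, 54.0 and 52.8 RPKM in Nicol+/-. Nicol-/- replicate 3 was again the highest, through Cd68 at 92.2 RPKM, and of 6 macrophage markers tested 0 were higher and 1 lower in Nicol-/-. Among 7 markers of smooth muscle, 5 rose and 1 fell in Nicol-/-, with 0 higher and 2 lower in Ros1-/-. In Ros1-/- against Nicol-/-, 5 of these 7 were lower, among them Acta2, the smooth muscle actin gene (-0.96, adjusted p = 0.02 from limma). Of 7 endothelial markers, 0 were higher and 4 lower in Nicol-/- and 0 higher and 5 lower in Ros1-/-. Their part in the motile cilia result was not tested.

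Markers of the non-ciliated cells of the efferent duct did not move as 1 group. Of 6 tested, 3 were higher and 1 lower in Nicol-/-, 3 higher and 2 lower in Ros1-/-, and 0 higher and 2 lower in Ros1-/- against Nicol-/-. The shares of all genes called are those given above for the other cell types. Lrp2, the endocytic receptor megalin, had 3.09, 3.35 and 3.55 RPKM in Nicol-/-, 1.63, 1.73 and 1.66 RPKM in Ros1-/- and 1.47, 2.05 and 1.66 RPKM in Nicol+/- (0.67 in Nicol-/-, adjusted p = 0.00373 from limma). Its partner receptor Cubn was at most 0.0572 RPKM in any library. Slc9a3, the sodium-proton exchanger of efferent duct, was too low to be tested, with 0.745, 1.06 and 1.15 RPKM in Nicol-/-, 0.539, 0.373 and 0.361 RPKM in Ros1-/- and 0.256, 0.455 and 0.456 RPKM in Nicol+/-. As with Foxj1, all 3 Nicol-/- libraries were above the other 6. Esr1, the oestrogen receptor, was higher by 0.47 in Nicol-/- (adjusted p = 0.0266) and 0.46 in Ros1-/- (adjusted p = 0.0258). The adaptor Dab2, which other epididymal cells also express at high level, was higher by 0.68 (adjusted p = 0.0153) and 0.90 (adjusted p = 0.00366). The bicarbonate transporter Slc4a4 was lower in both, at -1.19 (adjusted p = 0.00118) and -1.47 (adjusted p = 0.000284). The water channel Aqp1 did not share the pattern of Lrp2 and Slc9a3. It was level in Nicol-/- (0.07, adjusted p = 0.73 from limma) and lower in Ros1-/- (-0.76, adjusted p = 0.00409). Amn, at most 1.86 RPKM in any library, was level in Nicol-/- (0.08, adjusted p = 0.838) and higher in Ros1-/- (0.83, adjusted p = 0.0335). The list summed to 281.2, 236.8 and 298.4 RPKM in Nicol-/-, 293.6, 241.6 and 349.7 RPKM in Ros1-/- and 176.8, 183.3 and 207.0 RPKM in Nicol+/-, and Dab2 made up most of it. The part of efferent duct tissue in the motile cilia result was not tested.

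Several further measurements bear on precision. The estimated reads behind a member ran from 3 for Gmnc in Ros1-/- replicate 3 to 2217 for Ccno in Ros1-/- replicate 1, and Foxj1 had 246, 309 and 1202 reads in Nicol-/- and 75, 310 and 271 in Nicol+/-. The shallowest library, Nicol+/- replicate 1, gave 8 reads each for Sntn and Fam183b. The 33 genes lie on 15 chromosomes, 7 of them on chromosome 11, so they are no single linked block. How near single members, such as Drc1 on chromosome 5, lie to the targeted genes Gm1673 and Ros1 was not examined. Another gene of the table overlaps 6 of them: Dnah11, Dnaic1, Cfap43, Fam183b, Ccdc39 and Ccdc40. The sources used here do not give how reads in such overlaps were assigned, and the values of these 6 carry that uncertainty.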

How the data were processed

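RNA-seq libraries of IS-caput epididymis were made by the authors with a stranded mRNA kit and sequenced as 101-bp single-ended reads. Per the labels and methods, reads were mapped to mm10 with TopHat2 2.1.1 and RPKM values calculated with Cufflinks 2.2.1. The deposited table holds, per library, a normalized FPKM (RPKM for single-ended reads) and a normalized count, a signal already scaled between libraries by the authors. Of the low normalized counts, 98.5% to 98.7% were whole multiples of 1 step per library (within 0.02), and the step gave the estimated depth. No count model was used.

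The values were analysed as log2(RPKM + 1) with limma 3.58.1 in R 4.3.3, with a mean-variance trend and 3 group means over 9 libraries (6 residual degrees of freedom), for genes reaching 1 RPKM in 3 libraries or more. The p-values were adjusted by Benjamini-Hochberg over 13647 genes at a threshold of 0.05. The fit was tested on simulated data. An exact permutation test of 3 against 3 libraries was not used, since it cannot pass this threshold. The members and lists were chosen with earlier results of these data known, and the motif letters with the members known. Every listed member was named, and in the wider lists those with the smallest p or highest RPKM were. Same-numbered Nicol-/- and Nicol+/- libraries deviated together from their group means (correlations across genes of 0.194, 0.103 and 0.243), where differently numbered ones had -0.198 to 0.06. A block for the number was therefore fitted to these 6 libraries. This pairing comes from the data, since the labels give the numbers without a meaning. Values of this size also occurred without a shared number, at 0.242 for Nicol-/- replicate 1 with Ros1-/- replicate 2. No library was a copy of another. Gene positions and promoters come from RefSeq GRCm38.p6, the same assembly as mm10, matched by gene ID for all 33 members. Alternatives covered pseudocounts, filters, scalings, variance models, libraries and tests. Figures were drawn with matplotlib 3.10.9.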

Additional observations from a re-analysis of the deposited data

Results flagged for a closer look

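Among the cilium and efferent duct genes, Aqp1, Lrp2 and Cfap53 differed between the knockouts themselves, in the direct comparison of Ros1-/- with Nicol-/- by limma. Aqp1, a water channel, had 13.2, 13.7 and 16.9 RPKM in Ros1-/- and 27.3, 22.9 and 30.5 RPKM in Nicol-/- (log2 fold change -0.84, adjusted p = 0.0255). In Nicol+/- it had 29.0, 23.2 and 24.1 RPKM, so Nicol-/- was level with Nicol+/- and Ros1-/- was below both. Lrp2 had a log2 fold change of -0.69 (adjusted p = 0.0255), with all 3 Ros1-/- libraries below all 3 Nicol-/- libraries. Cfap53, a cilium gene that is also used in nodal cilia, had 8.12, 7.64 and 11.2 RPKM in Ros1-/- and 15.3, 14.99 and 15.6 RPKM in Nicol-/- (log2 fold change -0.72, adjusted p = 0.0449), and for Cfap53 the Nicol-/- replicate 3 library did not stand apart. Its Nicol+/- values were 12.7, 9.46 and 11.7 RPKM, and neither knockout was called against Nicol+/-. In the same comparison 5 of 7 smooth muscle markers were lower, among them Acta2 with 176.2, 178.4 and 169.0 RPKM in Ros1-/- and 369.2, 325.1 and 330.2 RPKM in Nicol-/- (log2 fold change -0.96, adjusted p = 0.02). Acta2 had 253.9, 205.7 and 164.5 RPKM in Nicol+/-, and it was called higher in Nicol-/- and not called in Ros1-/- against these. Their part in the other differences was not tested.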

How the results depend on the processing

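In Nicol-/- against Nicol+/-, the direction of the tested motile cilia genes held under the 24 alternatives except for Rfx2, whose log2 fold change in Nicol-/- was 0.21, ran from -0.01 (without Nicol-/- replicate 3) to 0.32 when 1 library was left out, and was -0.01 when replicate 3 of both knockouts was left out, a setting chosen after seeing the data. The number of genes called did not hold. For Nicol-/- against Nicol+/- (13 higher) it was 4 with no filter, 6 with a filter of 5 RPKM (8 members tested), 4 in the 6 libraries compared, 5 by the study's test and 5 without both replicate 3 libraries, and it ran from 3 (without Nicol+/- replicate 1) to 16 (without Nicol-/- replicate 2) when 1 library was left out. It was 4 without Nicol+/- replicate 3 or Ros1-/- replicate 1, 6 without Nicol+/- replicate 2 and 7 without Ros1-/- replicate 2 or 3. Over all genes, 1018 of 19741 were called higher with no filter and 865 of 9727 with the filter of 5 RPKM. In the 6 libraries compared, 649 of all genes tested were called higher, where the main fit called 1221. The number of calls over all genes was thus also lower in these settings. With the filter of 5 RPKM fewer genes were tested. Its 865 of 9727 is a share close to the 1221 of 13647 in the main fit. For the other counts in this paragraph the all-gene number is not given here. The median log2 fold change of the members was 1.17 with a pseudocount of 0.1, 1.18 on normalized counts, 0.53 without both replicate 3 libraries and 0.53 to 1.07 when 1 library was left out. For Ros1-/- against Nicol+/- (1 higher) the count was 2 with a pseudocount of 0.1, 2 on normalized counts, 9 in the 6 libraries compared, 14 by the study's test and 3 without both replicate 3 libraries, and 0 (without Ros1-/- replicate 1) to 8 (without Nicol-/- replicate 3) when 1 library was left out. For Ros1-/- against Nicol-/- (0 lower) the study's test gave 2, and the median was -0.14 without both replicate 3 libraries and -0.62 to -0.12 when 1 library was left out. The cause of these shifts was not tested, beyond the fewer libraries or more genes that some settings use. With the replicate block in the Nicol libraries 9 members were called higher, 8 of them among the 13, and the block changed no call but those given beside Zmynd10, Ccdc39, Ccdc113, Rsph1, Tekt1 and Tppp3. A replicate block over the 9 libraries gave 13 for Nicol-/- and 2 for Ros1-/-. Ros1-/- libraries did not deviate together with same-numbered Nicol+/- libraries (correlations of -0.044, 0.013 and 0.097). Values of single members under the alternatives kept direction and side of the threshold in 575 cases, lost the call in 113 and gained it in 30.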
